A study of Mus musculus with 12 samples.

Results

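The genes examined were 9 that write, maintain or remove DNA methylation: Dnmt1, Uhrf1, Dnmt3a, Dnmt3b, Dnmt3l, Tet1, Tet2, Tet3 and Tdg. They were chosen by name as DNA methyltransferases, their cofactors and demethylation enzymes, with no measured value in the rule. Earlier results of these data were known when the choice was made. The 9 are among the 51467 genes in the count table. All 9 were among the 14033 genes that passed the filter on low counts, at least 3 CPM, counts scaled to library depth, in at least 3 libraries. The data came from mouse embryonic stem cells (ESCs), either wild-type or lacking Dgcr8 (Dgcr8 KO), kept in medium with serum, LIF and the inhibitor pair 2i. All cells of both genotypes received 500 µM 4-thiouridine (4sU), a uridine analogue that enters new RNA, for 30 min before lysis. The RNA was then divided into a biotin-captured fraction (4sU libraries, nascent RNA) and an rRNA-depleted fraction (total libraries, steady-state RNA). Each of the 4 groups, wild-type and Dgcr8 KO, 4sU and total, held 3 replicates. Per the methods of the study, the wild-type line was V6.5 and the Dgcr8 KO was an ESC line made earlier. Its parental line was not given in the sources used here, so the effect of the deletion and a difference between lines cannot be told apart. The labels do not say whether replicates were separate cultures, so p-values measure the spread between these samples, which may be technical.

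Methylation of cytosine in DNA is copied after replication by Dnmt1, which Uhrf1 brings to hemimethylated sites. Dnmt3a and Dnmt3b methylate new sites with the help of Dnmt3l, which has no catalytic activity of its own. The TET enzymes oxidise methylated cytosine, and Tdg excises oxidised products, after which base excision repair restores cytosine. Dgcr8 is a partner of Drosha in the first cleavage of canonical microRNA transcripts, so cells without it lack most mature microRNAs.

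Dgcr8 was checked first. Its total RNA was 101.6 ± 9.30 CPM in wild-type and 33.3 ± 1.09 CPM in Dgcr8 KO (SD, n = 3), and the fitted log2 change was -1.60 (limma adjusted p = 6.63e-17). In 4sU RNA it was 111.7 ± 5.75 and 78.4 ± 7.88 CPM, with a log2 change of -0.51 by limma (adjusted p = 1.95e-06). Which exons were deleted was not given in the sources used here, so the remaining 222 to 456 counts per KO library could not be placed inside or outside the deletion. Library totals ranged from 4593914 to 9295245 counts, and 1 count was worth 0.108 to 0.218 CPM. No pair of replicates was alike enough to be 1 library deposited again (chi-square over degrees of freedom 1.54 to 5.10). The ESC markers Pou5f1, Sox2, Nanog, Zfp42 and Esrrb summed to 2950 to 3059 CPM in wild-type total and 3155 to 3234 CPM in Dgcr8 KO total libraries. Pou5f1, Sox2 and Zfp42 rose and Nanog and Esrrb fell (limma adjusted p under 0.05 in each, beside 63.9% of all tested genes). The 7 fibroblast markers summed to at most 3.76 CPM in any library, and Postn and Dcn had 0 counts in every library.

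In total RNA, 2 of the 9 genes were called lower in Dgcr8 KO and 0 higher, where a call needed a limma adjusted p under 0.05 and a log2 change over 1 in either direction. The called genes were Uhrf1 and Tdg. In bulk RNA a smaller share of cells that express a gene and less RNA per cell cannot be told apart. Of all tested genes, 17.2% were called on the same terms, and 7.82% of all tested genes were called lower. At an adjusted p under 0.05 with no limit on size, 5 members rose (Dnmt1, Dnmt3a, Tet1, Tet2 and Tet3), 3 fell (Uhrf1, Dnmt3b and Tdg) and Dnmt3l did not pass. That is 8 of 9, beside 63.9% of all tested genes (27.2% higher and 36.7% lower). The 3 KO libraries lay wholly outside the range of the 3 wild-type libraries for 8 members, beside 68.8% of all genes. The median log2 change was 0.13 over the 9 genes and -0.09 over all genes.

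In nascent RNA, 0 of 9 were called by limma, edgeR or DESeq2, beside 14.8% of all genes by limma. Past an adjusted p under 0.05 were 5 members by limma and 5 by edgeR, beside 56.3% of all genes (28.3% higher and 28% lower), and 6 had an unadjusted limma p under 0.05. Dnmt3a, Tet1 and Tet3 rose, and Dnmt3b and Uhrf1 fell. In 5 members the KO and wild-type libraries did not overlap, beside 59% of all genes. The median log2 change was -0.04 over the members and -0.02 over all genes.

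Stability here means total RNA divided by 4sU RNA, so its change is the interaction of genotype with library type. In this contrast 0 of 9 members were called by limma, edgeR or DESeq2, beside 1.76% of all genes by limma. By limma 2 members, Dnmt1 (higher) and Uhrf1 (lower), had an adjusted p under 0.05, and 2 an unadjusted p under 0.05, beside 16.1% of all genes at the adjusted threshold. By edgeR 1 passed, Uhrf1. The median log2 change was 0.03 over the members and -0.09 over all genes. The 3 contrasts share libraries and are not independent of each other.

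**Figure D1:**
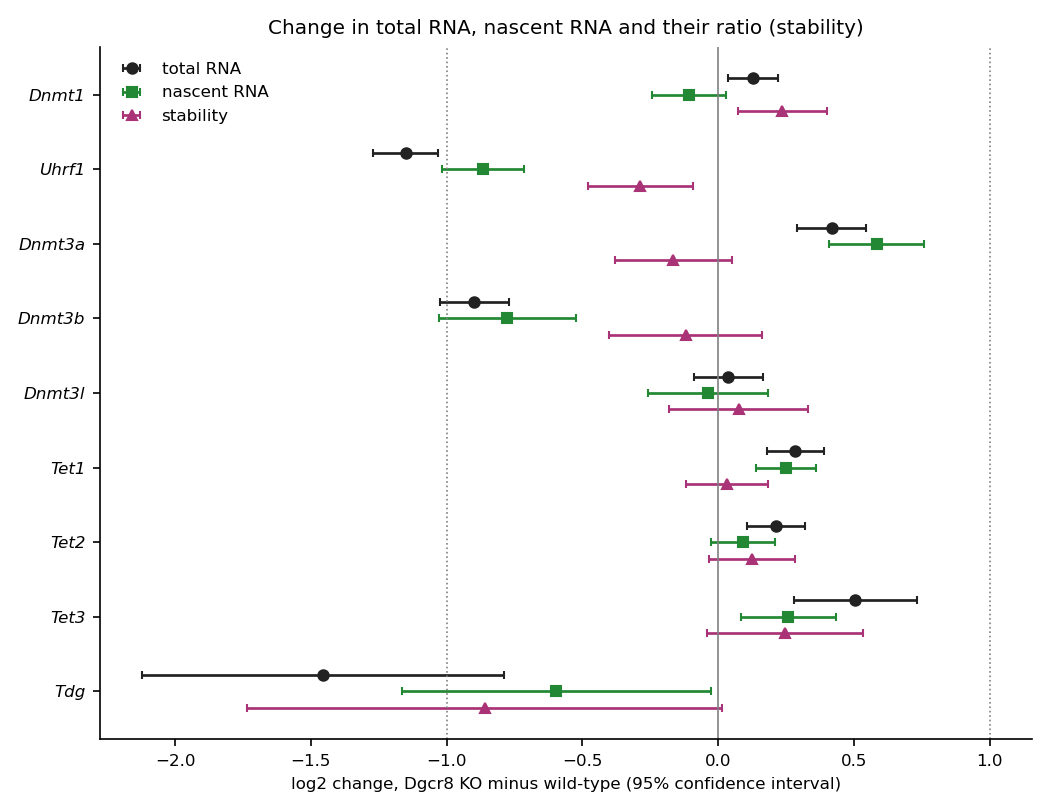
Log2 change in Dgcr8 KO relative to wild-type (x axis) for each gene (y axis) in total RNA (circles), nascent RNA (squares) and their ratio (triangles), from the limma fit, with bars for 95% confidence intervals and dotted lines at a log2 change of -1 and 1. The total RNA points of Uhrf1 at -1.15 and Tdg at -1.46 lie past the left dotted line, and those of Dnmt3a at 0.42 and Tet3 at 0.50 are the farthest to the right.

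The maintenance genes moved in opposite directions in total RNA, the rise of Dnmt1 being small and not past the threshold in every fit. Uhrf1 (ENSMUSG00000001228.14, mm10 chromosome 17, 56303321 to 56323486, plus strand), the reader of hemimethylated DNA, lay at 665, 634 and 747 CPM in wild-type and at 297, 306 and 318 CPM in Dgcr8 KO total libraries. In 4sU libraries it lay at 277, 246 and 299 CPM in wild-type and at 145, 142 and 163 CPM in Dgcr8 KO. Every KO library was below every wild-type library of its type, with no overlap. The fall was 2.22-fold in total RNA (log2 change -1.15, SE 0.0590, limma adjusted p = 2.93e-17) and 1.82-fold in nascent RNA (-0.87, SE 0.0744, limma adjusted p = 1.73e-11). The total RNA value held under all 18 alternatives run, between -1.21 and -1.06. Uhrf1 shares 18.9% of its 50-base windows with the genes Gm5648 and Gm15953, where uniquely mapped reads cannot be placed, and neither of these had more than 7 counts in a library.

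Dnmt1 (ENSMUSG00000004099.16, chromosome 9, 20907209 to 20959888, minus strand), the maintenance methyltransferase itself, lay at 631, 575 and 646 CPM in wild-type and at 692, 674 and 654 CPM in Dgcr8 KO total libraries. All 3 KO values were above all 3 wild-type values, by a narrow margin between 646 and 654 CPM. The rise was 1.09-fold (95% confidence interval 1.02 to 1.17, log2 change 0.13, limma adjusted p = 0.0150, edgeR adjusted p = 0.0433). It did not pass with limma-trend (adjusted p = 0.0580), without wild-type replicate 2 (0.218), without KO replicate 1 (0.0731) or without KO replicate 2 (0.0513). In nascent RNA Dnmt1 lay at 149, 144 and 158 CPM in wild-type and at 147, 135 and 138 CPM in Dgcr8 KO, and the groups overlapped (log2 change -0.11, limma adjusted p = 0.168). That change passed with RLE scaling (adjusted p = 0.0313), upper-quartile scaling (0.0457) and DESeq2 (0.0286), at log2 changes of -0.17 to -0.16.

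Total RNA divided by 4sU RNA separated the pair. Same-numbered libraries were divided by each other, although their numbers were not shown to pair them, and the median over all genes was subtracted. On this log2 scale Dnmt1 lay at 1.99, 1.89 and 1.95 in wild-type and 2.23, 2.32 and 2.25 in Dgcr8 KO. Uhrf1 lay at 1.18, 1.26 and 1.24 in wild-type and 1.02, 1.10 and 0.97 in Dgcr8 KO. Neither gene's genotypes overlapped, Dnmt1 being higher and Uhrf1 lower without Dgcr8. This was not particular to the pair: Tet2 and Tet3 were also higher without overlap, Tet3 by a narrow margin between -1.49 and -1.48. The share of all tested genes without overlap on this scale was not counted. In the fit, stability changed by 0.24 for Dnmt1 (SE 0.0805, limma adjusted p = 0.0418, edgeR adjusted p = 0.0562) and by -0.29 for Uhrf1 (SE 0.0949, limma adjusted p = 0.0358, edgeR adjusted p = 0.0385). Neither held in every alternative. With 1 replicate of either genotype left out, Dnmt1 passed in 0 of 6 fits (limma adjusted p 0.0594 to 0.195) and Uhrf1 in 2 of 6, those without wild-type replicate 2 or 3. Uhrf1 also did not pass with RLE (0.174), upper-quartile (0.128) or library-size scaling (0.0703), or relative to the median change of all genes (0.189), where its value was -0.19.

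Per kilobase of exon, the ratio of Dnmt1 to Uhrf1 RNA was 0.528 ± 0.0245 in wild-type and 1.28 ± 0.0797 in Dgcr8 KO total libraries (SD, n = 3). In 4sU libraries it was 0.321 ± 0.0180 and 0.543 ± 0.0483. The ratio did not overlap between genotypes in either library type. Uhrf1 was the more abundant of the pair in wild-type total RNA. Their order in Dgcr8 KO total RNA is not resolved, since the 18.9% of Uhrf1 windows that are shared lower its level and Dnmt1 has none.

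**Figure D2:**
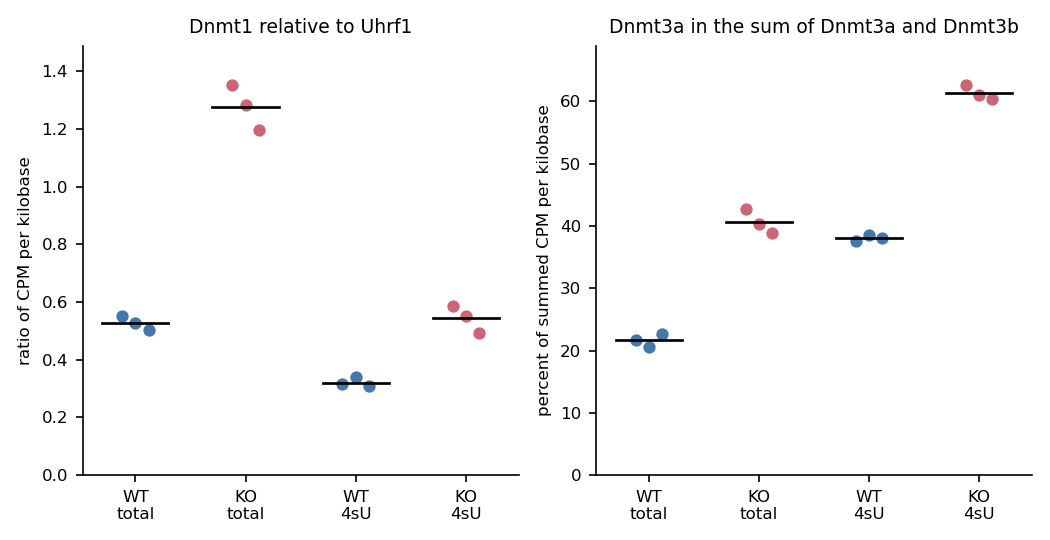
Left, the ratio of Dnmt1 to Uhrf1 in CPM per kilobase, and right, the percentage of Dnmt3a in the sum of Dnmt3a and Dnmt3b CPM per kilobase, for each library (points, wild-type blue and KO red) with group means (lines, n = 3). Both quantities were higher in every KO library than in every wild-type library of the same type.

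Dnmt1 and Uhrf1 share a sequence feature in their 3′ UTRs, a complete match to the seed of the miR-148 family. These sites are shown because each gene has 1 and their total RNA moved in opposite directions. The rise of Dnmt1 was only 1.09-fold and did not pass in every alternative. The mature microRNA is from RefSeq (GRCm38.p6), with bases 2 to 8, the seed, in capitals. The sites are from GENCODE M21 transcripts on mm10, with TGCACTGA, the seed match followed by A, in capitals. The Dnmt1 match lies at chromosome 9, 20907491 to 20907498, and the Uhrf1 match at chromosome 17, 56323115 to 56323122, both in exonic 3′ UTR.
mmu-miR-148a-3p: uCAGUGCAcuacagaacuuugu
Dnmt1 3′ UTR: gagccccacgTGCACTGAtgtttttaacc
Uhrf1 3′ UTR: tttcagagagTGCACTGActgggtgtcat
Of 11824 tested genes with a 3′ UTR, 24.6% hold a match of at least 7 bases to this family (TGCACTG or GCACTGA, on the transcript strand), and 3 of the 9 members do, including Tdg with 2. None of these overlapped a match to another family searched. A match is a description of the letters and not a measured site of action. MicroRNA levels were not measured here.

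The de novo methyltransferases also moved apart. Dnmt3a (ENSMUSG00000020661.15, chromosome 12, 3807030 to 3914443, plus strand) lay at 71.8, 71.6 and 73.4 CPM in wild-type and at 101, 96.8 and 91.9 CPM in Dgcr8 KO total libraries. In 4sU libraries it lay at 36.5, 38.3 and 39.0 CPM in wild-type and at 58.6, 54.7 and 57.1 CPM in Dgcr8 KO. All KO libraries were above all wild-type libraries of their type. The rise was 1.34-fold in total RNA (log2 change 0.42, SE 0.0620, limma adjusted p = 5.67e-07) and larger in nascent RNA at 0.58 (SE 0.0854, limma adjusted p = 7.49e-07). Both passed in all 18 alternatives. Stability changed by -0.17 (95% confidence interval -0.38 to 0.05, limma adjusted p = 0.322), which did not pass.

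Dnmt3b (ENSMUSG00000027478.15, chromosome 2, 153649450 to 153687730, plus strand), the second catalytic enzyme, lay at 114, 120.3 and 109.7 CPM in wild-type and at 59.0, 62.5 and 63.1 CPM in Dgcr8 KO total libraries. In 4sU libraries the values were 26.4, 26.6 and 27.6 CPM in wild-type and 15.2, 15.3 and 16.4 CPM in Dgcr8 KO. The groups were far apart in both library types, with KO below wild-type. The fall was 1.86-fold in total RNA (log2 change -0.90, SE 0.0629, limma adjusted p = 6.70e-14) and 1.71-fold in nascent RNA (-0.78, SE 0.124, limma adjusted p = 3.05e-06), short of the log2 limit of 1 in all 18 alternatives. Its stability change of -0.12 (95% confidence interval -0.40 to 0.16, limma adjusted p = 0.628) did not pass. Dnmt3b shares 11.5% of its 50-base windows with Dnmt3c, a rodent paralogue, which had at most 3 counts in a library.

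Dnmt3l (ENSMUSG00000000730.13, chromosome 10, 78042287 to 78063622, plus strand), the non-catalytic cofactor, lay at 124, 138 and 137 CPM in wild-type and at 124, 146 and 142 CPM in Dgcr8 KO total libraries. The groups overlapped, and the log2 change was 0.04 (95% confidence interval -0.09 to 0.17, limma adjusted p = 0.613). In nascent RNA it was -0.04 (95% confidence interval -0.26 to 0.18, limma adjusted p = 0.786). A rise of 1.12-fold in total RNA still lies inside the first interval. Dnmt3l was the single member that passed in none of the 3 contrasts by limma, and its total RNA passed only in the fit of the 6 total libraries alone (0.12, adjusted p = 0.0458).

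The shift in balance can be read from levels per kilobase. Dnmt3a made up 21.6 ± 1.00% of the sum of Dnmt3a and Dnmt3b in wild-type total libraries and 40.6 ± 1.94% in Dgcr8 KO total libraries (SD, n = 3). In 4sU libraries its share was 38.1 ± 0.474% in wild-type and 61.4 ± 1.22% in Dgcr8 KO, so that it exceeded Dnmt3b in nascent RNA of every KO library. Dnmt3l relative to Dnmt3b was 1.89 ± 0.130 in wild-type and 3.62 ± 0.192 in Dgcr8 KO total RNA. The size of this ratio depends on the exon length taken for each gene, its fold between genotypes does not. Among primed epiblast markers, whose state is known for high Dnmt3a and Dnmt3b, the summed level was 59.8 to 60.7 CPM in wild-type and 78.2 to 87.5 CPM in Dgcr8 KO total libraries. Of the 5, Otx2 rose by 0.78 and Zic2 by 0.52, Pou3f1 changed by -2.42 (limma adjusted p under 0.05 in each), Sox3 did not pass the filter and Fgf5 had at most 1 count in a total library. Their part in the results on Dnmt3a and Dnmt3b was not tested.

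Both catalytic genes carry matches to the seed of the miR-29 family in their 3′ UTRs, and they moved in opposite directions. Dnmt3a has 6 and Dnmt3b 2. The 2 matches of TGGTGCTA (seed match followed by A) in Dnmt3a, at chromosome 12, 3911405 to 3911412 and 3911474 to 3911481, are shown beside both matches of Dnmt3b, TGGTGCT at chromosome 2, 153686627 to 153686633, and GGTGCTA at 153687497 to 153687503. Capitals mark the seed in the microRNA and the match in the 3′ UTR, and either 7 letters counted as a match.
mmu-miR-29a-3p: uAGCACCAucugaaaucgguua
Dnmt3a first site: gggaggtagcTGGTGCTAgcaccagggtc
Dnmt3a second site: ggtcccaagcTGGTGCTAattcctctcat
Dnmt3b first site: gtagcccggcaTGGTGCTcatgttctctt
Dnmt3b second site: acctaattacaGGTGCTAttttatagaag
In all, 6 of 9 members have a miR-29 match, beside 20.9% of tested genes: Tet3 10, Tet1 8, Dnmt3a 6, Tet2 5, Tdg 3 and Dnmt3b 2. None of these matches overlapped one of another family searched. The 3′ UTR of Dnmt3b, at 1331 bases, is near the median of 1379 over tested genes, and those of the other 5 are longer, from 2079 in Tdg to 7962 in Tet1. The stability changes of the 6 genes ranged from -0.86 to 0.25, none passing the test. The count is not particular to miR-29: the same 6 genes also have a match to the miR-26 family, beside 22.7% of tested genes. A miR-22 match was found in 5 of the 9 members, beside 23.2% of tested genes. Dnmt3l, with a 3′ UTR of 273 bases, has no match to any of the 7 families searched.

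The 3 TET genes all rose in total RNA by less than 1 on the log2 scale. Tet1 (ENSMUSG00000047146.16, chromosome 10, 62804570 to 62899118, minus strand) lay at 745, 742 and 706 CPM in wild-type and at 887, 916 and 865 CPM in Dgcr8 KO total libraries. In 4sU libraries it lay at 871, 818 and 699 CPM in wild-type and at 938, 962 and 929 CPM in Dgcr8 KO. Every KO library was above every wild-type library of its type, with a wider spread among the wild-type 4sU libraries. The rise was 1.22-fold in total RNA (log2 change 0.28, SE 0.0511, limma adjusted p = 1.30e-05) and 1.19-fold in nascent RNA (0.25, SE 0.0539, limma adjusted p = 2.02e-04), and both passed in all 18 alternatives.

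Tet2 (ENSMUSG00000040943.12, chromosome 3, 133463679 to 133544390, minus strand), which lacks the DNA-binding CXXC domain of the other two, lay at 549.8, 556 and 495 CPM in wild-type and at 616, 639 and 597 CPM in Dgcr8 KO total libraries. The groups did not overlap, and the rise was 1.16-fold (log2 change 0.21, SE 0.0522, limma adjusted p = 6.21e-04). In 4sU libraries the values were 493, 463 and 440.3 CPM in wild-type and 453, 513 and 523 CPM in Dgcr8 KO. These overlapped, and the fitted change of 0.09 on the log2 scale did not pass (limma adjusted p = 0.181), but it passed without KO replicate 1 (0.17, adjusted p = 0.0259).

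Tet3 (ENSMUSG00000034832.15, chromosome 6, 83362373 to 83456392, minus strand), the TET enzyme best known from the zygote, was the least abundant of the 3. It lay at 17.8, 17.8 and 18.4 CPM in wild-type and at 22.5, 28.5 and 26.6 CPM in Dgcr8 KO total libraries, without overlap. In 4sU libraries it lay higher, at 58.2, 56.1 and 49.5 CPM in wild-type and 63.2, 68.9 and 63.6 CPM in Dgcr8 KO. The rise was 1.42-fold in total RNA (log2 change 0.50, SE 0.111, limma adjusted p = 1.96e-04). In nascent RNA the log2 change was 0.26 (SE 0.0855, limma adjusted p = 0.0108). The nascent rise did not pass with DESeq2 (adjusted p = 0.104) or without wild-type replicate 3 (limma adjusted p = 0.0968).

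None of the 3 passed for stability, where the log2 changes were 0.03 for Tet1, 0.12 for Tet2 and 0.25 for Tet3 (limma adjusted p = 0.817, 0.316 and 0.257). The 95% confidence intervals reached 0.19, 0.28 and 0.53, so rises of that size lie within the error. In total RNA per kilobase, Tet2 held 52.5 ± 0.893% of the TET sum in wild-type and 51.1 ± 0.188% in Dgcr8 KO (SD, n = 3). Tet1 held 46.1 ± 0.804% and 47.2 ± 0.161%, and Tet3 1.39 ± 0.0910% and 1.68 ± 0.185%.

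**Figure D3:**
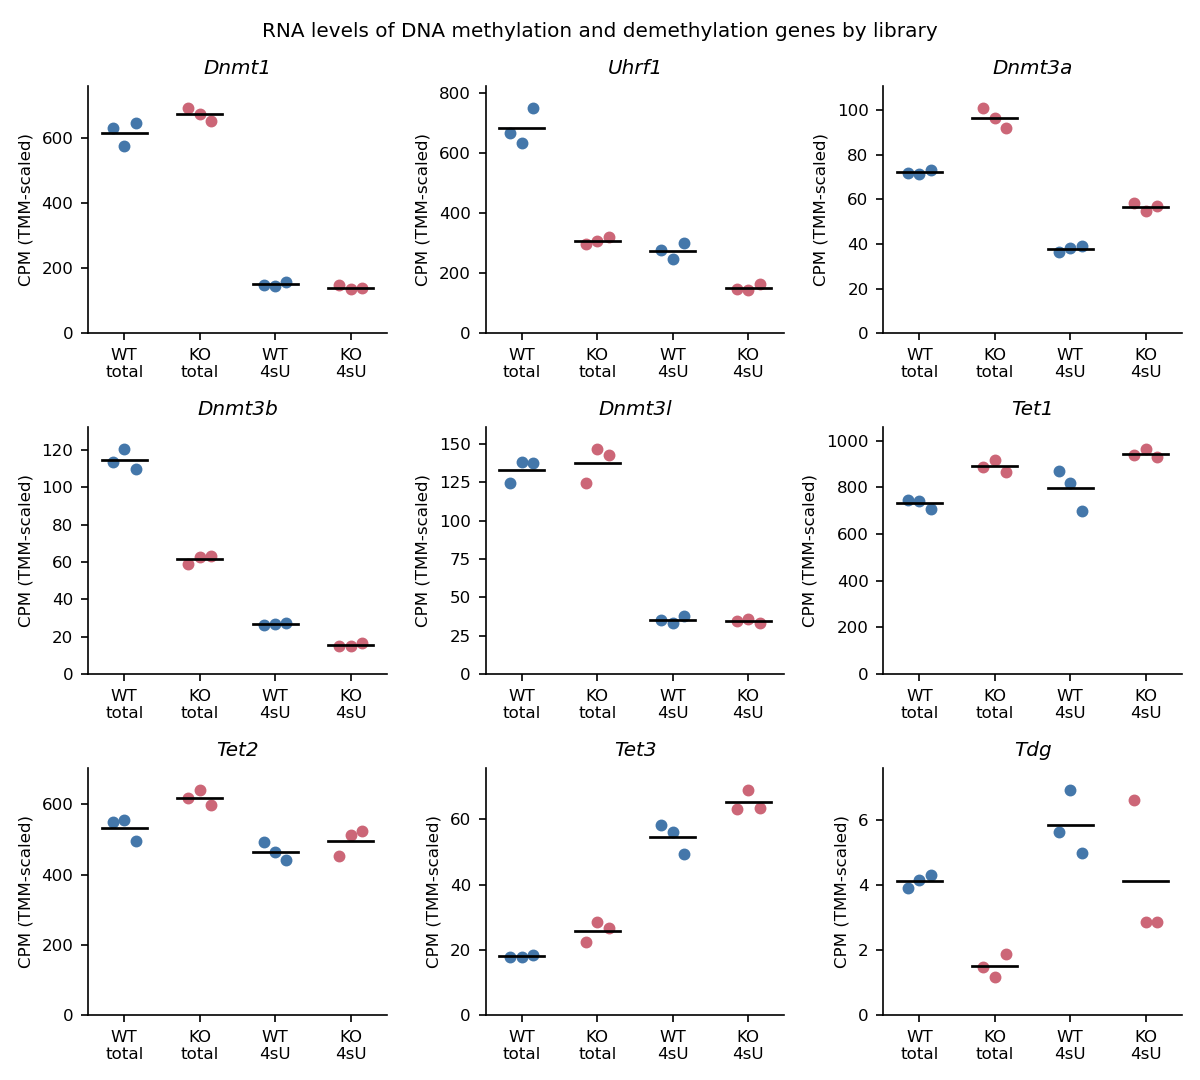
CPM scaled by TMM factors in each library (points, wild-type blue and KO red) for the 9 genes, by group (x axis), with group means (lines, n = 3) and y axes starting at 0. Uhrf1 and Dnmt3b are lower and Dnmt3a, Tet1 and Tet3 higher in every KO library than in every wild-type library of the same type. Dnmt3l overlaps in both types.

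The TET genes are also the members whose 3′ UTRs match the seed of the ESCC microRNAs, miR-294, miR-302 and their relatives, the family best known for keeping the fast cell cycle of ESCs. All 6 matches are shown, since no other member has one. Capitals mark AGCACTT, the match to bases 2 to 8. GCACTTA, the match to bases 2 to 7 followed by A, was also searched and added no match.
mmu-miR-294-3p: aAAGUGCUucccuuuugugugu
mmu-miR-302b-3p: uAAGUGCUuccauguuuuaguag
Tet1 first site: atattttaaaaAGCACTTtctacttttaa
Tet1 second site: aaaatagttaaAGCACTTcatgacattaa
Tet2 site: tgtcttagaaaAGCACTTtgcctacctaa
Tet3 first site: tcttcttccccAGCACTTtgaagaaacta
Tet3 second site: agatttttttaAGCACTTttgcctagatt
Tet3 last site: aaaatctacgcAGCACTTggtttatctgc
They lie in exonic 3′ UTR on the minus strand of mm10, at chromosome 10, 62811886 to 62811892 and 62805030 to 62805036 (Tet1), chromosome 3, 133465915 to 133465921 (Tet2), and chromosome 6, 83367844 to 83367850, 83366212 to 83366218 and 83363410 to 83363416 (Tet3). Of tested genes with a 3′ UTR, 22.3% hold such a match, and 3 of 9 members do. Of the 6 matches, 4 overlap a match to the miR-17 family (GCACTTT), whose seed is shifted by 1 base, so the families cannot be told apart there. The 3 genes with a match have 3′ UTRs of 3058 to 7962 bases, and their stability changes were those given above.

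Tdg (ENSMUSG00000034674.18, chromosome 10, 82629828 to 82650799, plus strand), the glycosylase of the pathway, had the largest fitted change and the weakest measurement of the 9. It lay at 3.90, 4.15 and 4.30 CPM in wild-type total libraries (25, 34 and 37 counts) and at 1.47, 1.17 and 1.88 CPM in Dgcr8 KO total libraries (13, 9 and 13 counts). In 4sU libraries it lay at 5.63, 6.90 and 4.98 CPM in wild-type and at 6.60, 2.86 and 2.86 CPM in Dgcr8 KO. The groups were apart in total RNA and overlapped in nascent RNA, where 1 KO library was as high as wild-type. Total RNA fell by 1.46 on the log2 scale (2.74-fold, 95% confidence interval of KO relative to wild-type 0.230 to 0.578, limma adjusted p = 2.42e-04, edgeR adjusted p = 1.29e-04). The nascent change of -0.60 (limma adjusted p = 0.0683) and the stability change of -0.86 (limma adjusted p = 0.187) did not pass. Without KO replicate 1 the nascent change was -0.97 (limma adjusted p = 0.0129).

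Much of the Tdg transcript cannot be counted from uniquely mapped reads. Of its 50-base windows, 66.3% also occur in transcripts of other genes, on either strand. Among these genes are Gm9855, Tdg-ps and Gm5597, so the level of Tdg is a lower limit. The share includes windows opposite Glt8d2, where reads are told apart by strand. Copies outside annotated transcripts were not searched, so the true share could be lower or higher. Gm9855 had 17, 28 and 22 counts in wild-type total and 11, 11 and 10 in Dgcr8 KO total libraries. With the counts of Tdg, Gm9855, Tdg-ps and Gm5597 summed, an alternative chosen after seeing the data, the log2 change was -1.34 in total RNA (limma adjusted p = 1.07e-05), -0.67 in nascent RNA (0.0115) and -0.67 for stability (0.172). A stretch of 367 bases of Tdg exon lies opposite Glt8d2, which was counted apart by strand and had at most 2 counts in a library.

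Compared per kilobase of exon, Uhrf1 was the most abundant member in wild-type total RNA, at 173 to 204 CPM per kilobase over 3 libraries. It was followed, in mean ± SD (n = 3), by Dnmt1 (97.9 ± 5.95), Tet2 (58.0 ± 3.61), Tet1 (50.9 ± 1.49), Dnmt3l (49.9 ± 2.87), Dnmt3b (26.5 ± 1.25), Dnmt3a (7.29 ± 0.102), Tet3 (1.53 ± 0.0274) and Tdg (1.16 ± 0.0565). Tet1 and Dnmt3l overlapped and their order is not resolved. Nor is that of Tet3 and Tdg, since many Tdg windows, among the 66.3% found in transcripts of other genes, cannot hold unique reads. The other neighbours did not overlap. Length was that of all annotated exons, for Dnmt3l 2670 bases against 1822 in its longest coding transcript. A shorter length raises the level per kilobase, so the place of Dnmt3l relative to Tet1 and Tet2 is not resolved. In Dgcr8 KO total RNA, Dnmt1 came first (107 ± 2.99) and Uhrf1 next (83.7 ± 2.91), without allowance for the shared windows of Uhrf1, and the order of the other 7 was the same. In 4sU RNA, Tet1 and Tet2 ranked above Dnmt1 in both genotypes, and Tet1 above Uhrf1 in Dgcr8 KO. In Dgcr8 KO 4sU RNA Dnmt3a exceeded Dnmt3b, at 5.73 ± 0.195 against 3.61 ± 0.153 CPM per kilobase, where wild-type had 3.82 ± 0.127 against 6.20 ± 0.149.

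In wild-type cells the members spanned most of the range of total over 4sU level, the measure of stability used here. Between genes this ratio also holds any difference in 4sU labelling and capture, which was not measured. By the fitted total over 4sU level, Dnmt3b lay at percentile 98.2 of all tested genes, Dnmt1 at 97.7, Dnmt3l at 96.6, Uhrf1 at 86.8 and Dnmt3a at 76.4. The TET genes and Tdg were lower, with Tet2 at 53.0, Tet1 at 44.2, Tdg at 35.3 and Tet3 lowest. With the median over genes set to 0, the log2 value was 2.00 (SE 0.0850) for Dnmt3b and -1.68 (SE 0.105) for Tet3. All 5 genes of the methylating side were above all 4 of the removing side, in wild-type and in Dgcr8 KO alike. This split follows 3′ UTR length in part: Dnmt1, Dnmt3l, Uhrf1 and Dnmt3b have 312, 273, 984 and 1331 bases and Tet1, Tet2, Tet3 and Tdg 7962, 3058, 5669 and 2079, whereas Dnmt3a has 6696. The part of length in it was not tested.

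**Figure D4:**
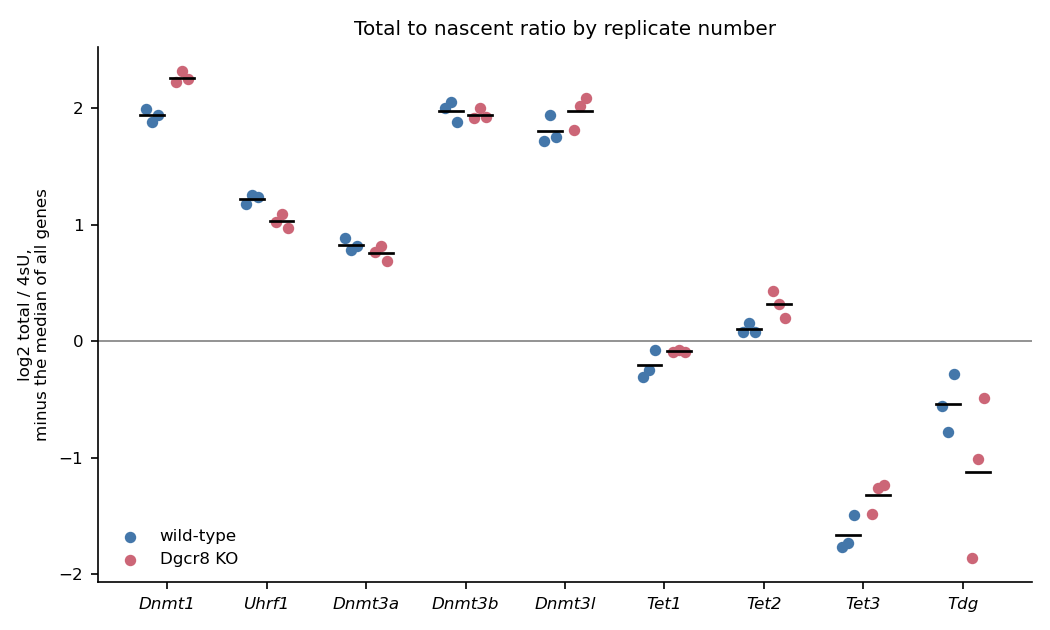
Log2 of total over 4sU level minus the median of all genes (y axis) for each gene (x axis), from same-numbered libraries of a genotype (points, wild-type blue and KO red) and means (lines, n = 3). Dnmt1, Tet2 and Tet3 are higher and Uhrf1 lower in Dgcr8 KO without overlap. The 5 genes on the left lie above the 4 on the right in both genotypes.

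The other genes of the pathway were taken from lists by role. Of 7 partners and regulators of maintenance methylation, 7 fell in total RNA (limma adjusted p under 0.05, 2 called). The median log2 change in total RNA was -0.57, and 5 of 7 fell in nascent RNA. Of all tested genes, 36.7% fell in total and 28% in nascent RNA. The called genes were Hells, a chromatin remodeller that supports maintenance methylation, which fell by 1.01 (SE 0.0507, limma adjusted p = 1.72e-17), and Dppa3, which restrains Uhrf1 and guards maternal methylation. Dppa3 had 84 to 113 counts in wild-type total libraries and 1 to 5 in Dgcr8 KO (limma adjusted p = 3.92e-11). It passed the filter on low counts through wild-type libraries alone. In stability 0 of 7 passed. Of the 2 maintenance enzymes, Uhrf1 fell as these genes did, its restrainer Dppa3 among them, and Dnmt1 did not.

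Of 11 guides and regulators of de novo methylation, 8 rose and 1 fell in total RNA, and 9 rose and 1 fell in nascent RNA. Of all tested genes, 27.2% rose in total and 28.3% in nascent RNA. The median log2 change in total RNA was 0.42. Rbl2, a pocket protein reported to restrain Dnmt3 gene expression, rose by 2.17 in total RNA (SE 0.0857, limma adjusted p = 4.27e-20) and by 1.43 in stability (SE 0.129, limma adjusted p = 1.39e-09), and was the single called gene. The gene that fell in both was Trim28, a corepressor of imprinted and repeat sequences, by 0.54 in total RNA (limma adjusted p = 1.58e-13), named here after its value was seen.

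Of 5 genes for TET partners and cofactor supply, 4 were tested, and 1 rose and 2 fell in total RNA, with a median of -0.36. The 3 that passed stand near the 63.9% of all tested genes. Idh1, which makes the TET cosubstrate alpha-ketoglutarate in the cytosol, was called lower in total RNA (-1.50, SE 0.0586, limma adjusted p = 3.01e-20) and in nascent RNA (-1.44, limma adjusted p = 1.98e-13). The mitochondrial enzyme Idh2, named after its value was seen, rose by 0.77 (limma adjusted p = 1.02e-15). Cxxc4 had at most 1 count in a library and was not tested.

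Of 14 genes of base excision repair and demethylation, 4 rose, 6 fell and 4 did not pass in total RNA, and 3 rose and 5 fell in nascent RNA. The shares in total RNA lay near those of all tested genes, 27.2% higher and 36.7% lower, and the median was 0.07. Ung, the uracil glycosylase, fell by 1.21 in total RNA (SE 0.0570, limma adjusted p = 3.37e-18), and Neil2, a glycosylase of oxidised bases, by 1.09 (SE 0.297, limma adjusted p = 0.00190) from 23 to 44 counts down to 9 to 19. Neil2 passed the filter on low counts through wild-type libraries alone. Gadd45a, a stress protein linked to active demethylation, was called higher (1.06, SE 0.139, limma adjusted p = 6.07e-08). Not every glycosylase fell: Neil1 rose (0.42, limma adjusted p = 0.00478) and Smug1 stood at 0.13, which did not pass (limma adjusted p = 0.214), both named after their values were seen. Of the 3 genes of methyl donor supply, Mat2b rose (0.54, limma adjusted p = 1.42e-09), Ahcy fell (-0.64, limma adjusted p = 3.39e-07) and Mat2a did not pass (-0.05, limma adjusted p = 0.535) in total RNA.

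For each member the tested gene with the most similar profile over the 12 libraries was found by the root mean square difference of gene-centred log2 CPM. These were Snrnp200 for Dnmt1, Cars for Uhrf1, Rtn3 for Dnmt3a, Psmb3 for Dnmt3b, Dync1i2 for Dnmt3l, Ccdc93 for Tet1, Aftph for Tet2, Rab11b for Tet3 and Rassf4 for Tdg. The differences were 0.0502 to 0.112 for the first 8 and 0.222 for Tdg, on the log2 scale. No member was the nearest gene of another member.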

How the data were processed

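The authors deposited raw counts, whole numbers of reads for each gene and library. Adapters had been removed with cutadapt 1.14, unique alignments to mm10 made with STAR 2.5.3a, and reads assigned by strand with featureCounts 1.5.3 to GENCODE M14 genes other than rRNA. Unique mapping leaves out reads from stretches that genes share. The table held 51559 rows, of which 92 were spike-ins with 1 count in all. Members were found by gene ID, and 51274 genes matched GENCODE M21, which gave symbols and 3′ UTRs (the longest per gene). No value column lacked a sample (0).

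In R 4.3.3, TMM factors came from edgeR 4.0.16, and limma 3.58.1 fitted log2 CPM with weights from voom. As in the study, 1 model held all 12 libraries, with genotype, library type and the interaction as terms, and p-values were adjusted by Benjamini-Hochberg over 14033 genes. Replicate log2 ratios used an offset of 0.5 CPM, which is large beside the 1.17 to 1.88 CPM of Tdg in Dgcr8 KO total libraries. Intervals are 95%. Alternatives were edgeR's quasi-likelihood test, DESeq2 1.42.0, limma-trend, other scalings, filters and blocks, and left-out replicates. The fits were run on simulated counts with the same spread for every gene and large changes. That run says nothing of small changes or of genes with few counts. The members and gene lists were chosen with earlier results of these data known. Genes were named by rule: the members, Dgcr8, up to 4 called genes per list, and the nearest profile of each member. Marker genes were named from their lists. Trim28, Idh2, Neil1, Smug1, Mat2a, Mat2b and Ahcy were outside the rule and named after their values were seen. Reads carried no molecular identifiers, so counting precision covers counting error only.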

Additional observations from a re-analysis of the deposited data

Results flagged for a closer look

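The change in Dgcr8 KO relative to wild-type differed between total and nascent RNA for 2 of the 9 genes, by the interaction term of the limma fit. That count stands near the share of all tested genes at the same adjusted p under 0.05, 16.1%. For Dnmt1 the difference was 0.24 on the log2 scale (limma adjusted p = 0.0418), total RNA being 0.13 higher and nascent RNA 0.11 lower in Dgcr8 KO, and all 3 KO replicates lay above all 3 wild-type replicates. For Uhrf1 it was -0.29 (limma adjusted p = 0.0358), total RNA falling by 1.15 and nascent RNA by 0.87, and all 3 KO replicates lay below. By edgeR the adjusted p was 0.0562 for Dnmt1 and 0.0385 for Uhrf1. Over the 18 alternatives run, the adjusted p ranged from 0.00304 to 0.254 for Dnmt1, with 9 past the threshold, and from 0.00164 to 0.345 for Uhrf1, with 8 past it. The cause was not tested.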

How the results depend on the processing

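The number of members called in total RNA was 2 under every alternative except a filter of 3 CPM in all 12 libraries (1, because Tdg was no longer tested) and no limit on the fold change (8). In nascent RNA and stability 0 were called under every alternative but no limit on the fold change (5 and 2). Members with an adjusted p under 0.05 for stability were 2 by limma-voom and 1 with edgeR, DESeq2, limma-trend, RLE, upper-quartile or library-size scaling, or relative to the median change (chosen after seeing the data), and 0 with no filter beyond 1 count. With 1 replicate left out they were 0 to 1. The cause was not tested. With the replicate number as a replicate block, 2 members were called in total RNA and 0 in nascent RNA and stability, and with each 4sU and total pair as the block 0 for stability. The block changed no call. Whether the numbers pair the samples could not be decided, since correlations of deviations from means of 3 replicates are weak evidence. These deviations correlated at -0.0898 to 0.0822 between genotypes. Between the 4sU and total library of a number they correlated at 0.0181 to 0.116, all positive but not over 0.1 for every pair. Among 27 results of single members, 10 changed in at least 1 of the alternatives: of 482 values, 25 were weaker, 9 stronger and 5 reversed. The reversed values lay near 0: Dnmt3l in total RNA without wild-type replicate 1 (-0.0151) or KO replicate 2 (-0.00570), with a range of -0.0151 to 0.117 over left-out replicates, Dnmt3l in nascent RNA without wild-type replicate 3 (0.00521) or KO replicate 3 (0.00760), with a range of -0.0855 to 0.00760, and Tet1 stability without wild-type replicate 1 (-0.0275), with a range of -0.0275 to 0.0978. Counts of all genes called in total RNA were 4002 with no filter beyond 1 count and 1045 with 3 CPM in all 12 libraries, against 2407. In nascent RNA they were 3801 and 837 against 2073, and in stability 341 and 115 against 247. With the 3′ UTR of the longest coding transcript every member had as many matches, and the share of tested genes with an ESCC match was 19.2%. Depth limits Tdg, with 9 to 37 counts in total libraries, and unique mapping limits Tdg, Uhrf1 and Dnmt3b. Scaling assumes that most genes did not change, and the spike-ins held too few counts for absolute levels.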
